A study of Mus musculus with 6 samples.

Results

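A list of 55 genes of S phase and DNA replication was followed in mouse neutrophils kept with lipopolysaccharide (LPS), with or without resveratrol. The members were taken from a given list of symbols, chosen with earlier results of these data known. All 55 of the 55 listed were found among the 25663 gene IDs of the count table. Neutrophils positive for CD45, CD11b and Ly6G were purified by sorting from C57BL/6 bone marrow, and no other genotype is labelled. They were kept for 6 hours with LPS and resveratrol (LPS+resveratrol, n = 3) or with LPS alone (LPS, n = 3), and the labels write the amount of resveratrol as 25 μmol. LPS, from the outer membrane of Gram-negative bacteria, activates neutrophils, and resveratrol is a polyphenol made by plants. LPS was present in every sample, so the comparison concerns what resveratrol changed in LPS-stimulated cells. Whether replicates came from different mice is not labelled, and p-values therefore reflect sample-to-sample spread that may be technical.

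Before a cell copies its DNA, the MCM helicase is loaded at replication origins. Cyclin E with its kinase partner then sets off S phase, and E2F factors switch on many of the genes that the copying needs. At each fork the helicase opens the DNA, primase and polymerase alpha lay down starts, the clamp PCNA holds the main polymerases, and ligase joins the pieces of the lagging strand. In the bone marrow, neutrophil precursors still divide, while maturing neutrophils leave the cell cycle.

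With resveratrol the S phase genes were higher as a group, and the cyclin E genes changed most. Over all 6 libraries 5 of the 55 members rose and 0 fell (edgeR quasi-likelihood test, adjusted p under 0.05 over all 13468 tested genes). The 5 were Ccne1, Ccne2, Prim1, Lig1 and Slbp. Among all tested genes 0.668% were called higher and 1.17% lower. At an unadjusted p under 0.05, 30 members were higher and 0 lower, against 10.7% and 9.18% of all tested genes. DESeq2 called 15 members higher and 0 lower, against 3.55% and 4.06% of the genes it gave an adjusted p. Limma-voom called 5 members higher and 0 lower, against 0.631% and 1.11% of all tested genes. The median log2 fold change of the members was 0.42, a ratio of 1.34, beside −0.004 over all tested genes. Positive log2 fold changes were found in 51 of 55 members and in 49.5% of all tested genes. All members passed the filter on low counts. The list as a whole was given no test, because its members were chosen with earlier results of these data known.

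LPS+resveratrol replicate 1 stood apart. Its correlation of log2 CPM (counts scaled to a common library size) with the other libraries across genes lay between 0.952 and 0.962, while the other 5 correlated with each other at 0.983 to 0.992. Total counts were between 18141352 and 19928153 per library. Without this library 30 of 55 members rose and 0 fell (edgeR, n = 2 and 3), where 11.8% of the 13791 genes tested were called higher and 12.9% lower. At an unadjusted p under 0.05, 38 members were higher and 0 lower in that comparison, against 16.8% and 17.9% of all tested genes. DESeq2 called 25 members higher and 0 lower, against 11.1% and 11.8% of the genes it gave an adjusted p, and limma-voom 30 higher and 0 lower, against 11.8% and 12.5% of all tested genes. The median log2 fold change of the members was then 0.33, beside −0.008 over all tested genes, and 53 of 55 members had positive values, against 48.9% of all tested genes. The 5 members called over 6 libraries were all called over these 5 as well, which share all of their libraries with the larger comparison.

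**Figure D1:**
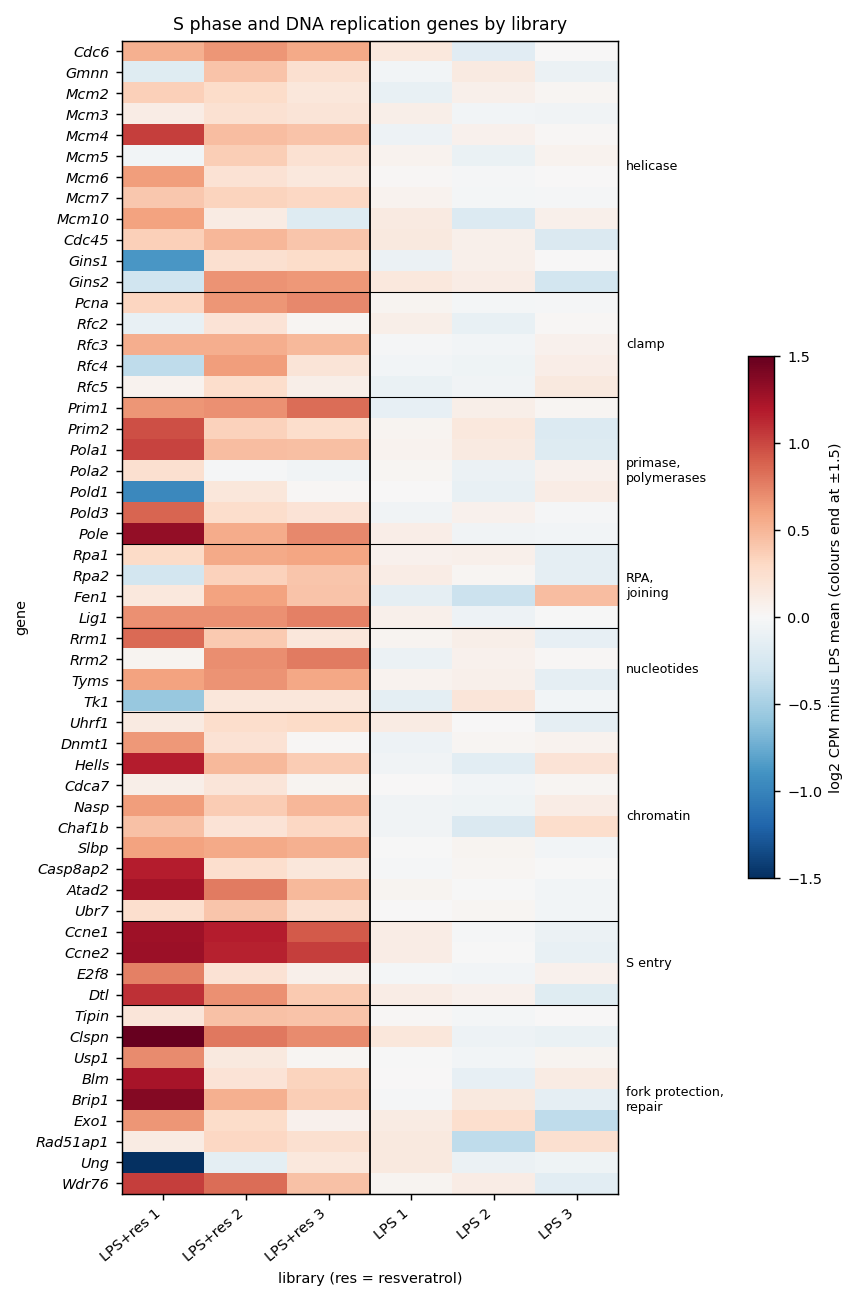
Heat map of log2(CPM + 0.1) minus the mean of the 3 LPS libraries for the 55 genes (rows, by role) in the 3 LPS+resveratrol and the 3 LPS libraries (columns); red is above and blue below the LPS mean, and colours end at 1.5 on either side. Ccne1 and Ccne2 are red in every LPS+resveratrol library, while Gins1, Pold1 and Ung are blue in LPS+resveratrol replicate 1.

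Levels did not overlap between the groups in 35 members over 6 libraries, all of them higher with resveratrol, where 17.3% of all tested genes did not overlap and were higher. In the other direction the count was 0 members, against 15.9% of all tested genes. Without LPS+resveratrol replicate 1 the counts were 43 members higher and 0 lower, against 25% and 24.3% of all tested genes. Summed over the 55 members, LPS+resveratrol replicates 1 to 3 had 1438, 1274 and 1211 CPM, and LPS replicates 1 to 3 had 971.5, 955.9 and 955.5 CPM. Every LPS+resveratrol library lay above every LPS library, and replicate 1 had the highest sum. By gene, replicate 1 lay above both other LPS+resveratrol libraries in 28 members and below both in 23. Its median deviation from their mean was 0.06 on the log2(CPM + 0.1) scale. In RNA from a whole cell population, more cells in S phase and more RNA per such cell cannot be told apart.

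Cyclin E, which drives the entry into S phase, is made from Ccne1 and Ccne2. Ccne2 (ENSMUSG00000028212) had 15.8, 14.4 and 13.3 CPM in LPS+resveratrol replicates 1 to 3, and 6.97, 6.42 and 5.92 CPM in LPS replicates 1 to 3. Each LPS+resveratrol value was above every LPS value by more than the spread within either group. The log2 fold change was 1.17 ± 0.139 (SE; edgeR adjusted p = 0.0229), and 1.10 ± 0.13 over the 5 libraries that leave out replicate 1 of LPS+resveratrol (edgeR adjusted p = 3.63e-08). Ccne1 (ENSMUSG00000002068) was less abundant, with 6.46, 6.04 and 5.05 CPM in LPS+resveratrol libraries and 2.83, 2.59 and 2.46 CPM in LPS libraries. Again the groups did not overlap, and the log2 fold change was 1.15 ± 0.176 (edgeR adjusted p = 0.0312), against 1.07 ± 0.199 over those 5 libraries (edgeR adjusted p = 8.56e-05). Ccne2 shares 17.4% of its exon bases with Ints8 on the opposite strand in GENCODE M21, and Ints8 itself was not called (log2 fold change 0.36, edgeR adjusted p = 0.274). The use of strand in counting is not given in the sources used here, and without it reads of such a pair cannot be told apart.

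Dtl is a substrate receptor of the ubiquitin ligase that destroys the licensing factor Cdt1 during S phase. It had 18.3, 13.8 and 11.2 CPM with resveratrol and 9.26, 8.90 and 7.54 CPM with LPS alone. The groups did not overlap, yet the call was not reached over 6 libraries (log2 fold change 0.75 ± 0.203, edgeR adjusted p = 0.116), except with DESeq2 (adjusted p = 0.0292). Without LPS+resveratrol replicate 1 Dtl rose by 0.54 on the log2 scale (edgeR adjusted p = 0.00211). E2f8 encodes an atypical E2F factor that represses E2F target genes. Its CPM were 34.5, 23.7 and 21.5 in LPS+resveratrol libraries and 20.0, 19.9 and 21.4 in LPS libraries, so that replicate 1 was high and replicate 3 barely above the LPS range. E2f8 did not pass with or without that library (edgeR adjusted p = 0.308 and 0.295). It shares 11.2% of its exon bases with Gm2788 on the opposite strand.

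**Figure D2:**
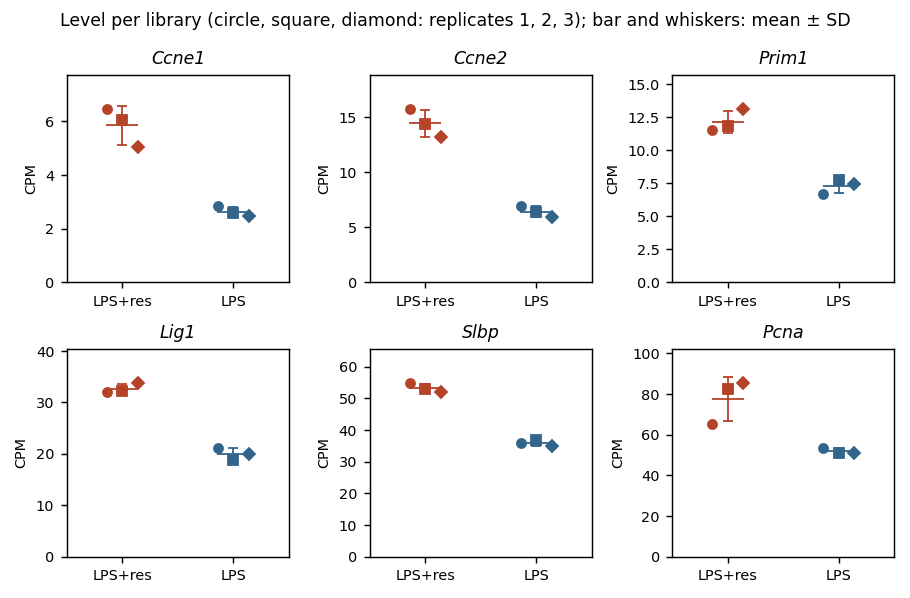
Level in CPM (vertical axes, each from 0) of Ccne1, Ccne2, Prim1, Lig1, Slbp and Pcna in each LPS+resveratrol library (left, red) and LPS library (right, blue), with the mean and SD of each group; circles, squares and diamonds are replicates 1, 2 and 3. In all 6 genes the groups do not overlap, and Pcna is lowest in replicate 1 among the LPS+resveratrol libraries.

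Among the remaining genes that passed over 6 libraries with edgeR, 1 acts in priming, 1 in joining and 1 on histone messages. Prim1 (ENSMUSG00000025395), the catalytic primase subunit, had 11.5, 11.8 and 13.1 CPM in LPS+resveratrol libraries and 6.70, 7.77 and 7.44 CPM in LPS libraries. Lig1 (ENSMUSG00000056394), the ligase that joins Okazaki fragments, had 32.1, 32.2 and 33.7 CPM in LPS+resveratrol libraries and 21.1, 18.9 and 20.0 CPM in LPS libraries. For Slbp (ENSMUSG00000004642), which binds the stem-loop of histone messages, the values were 54.7, 53.1 and 52.1 CPM in LPS+resveratrol libraries and 35.8, 36.9 and 34.9 CPM in LPS libraries. In all 3 genes LPS+resveratrol replicate 1 lay close to replicates 2 and 3. The log2 fold changes were 0.74 ± 0.134 for Prim1, 0.71 ± 0.104 for Lig1 and 0.57 ± 0.096 for Slbp (SE; edgeR adjusted p = 0.0474, 0.0284 and 0.0368). Over the 5 remaining libraries, with LPS+resveratrol replicate 1 left out, they were 0.76, 0.71 and 0.54 (edgeR adjusted p = 2.01e-05, 3.69e-08 and 4.39e-07). The calls over 6 libraries did not hold when another library was left out. Leaving out any 1 of the other 5 libraries in place of LPS+resveratrol replicate 1 left 0 members called with edgeR. In each of these fits 0 of all tested genes were called higher and 0 lower, so the loss was not particular to the members. In them 20 to 32 members had an unadjusted p under 0.05. Lig1 and Slbp share 5.79% and 7.80% of their exon bases with Zswim9 and Gm10459 on the opposite strand. Zswim9 had log2 fold changes of 0.59 over 6 libraries and 0.57 without LPS+resveratrol replicate 1, close to those of Lig1, but did not pass (edgeR adjusted p = 0.238 and 0.18), and Gm10459 was not tested. With offsets for transcript length and GC content 14 members were called higher and 0 lower over 6 libraries. Calls over all tested genes also increased in that fit, to 354 higher and 492 lower, from 90 and 157 without offsets.

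Promoter windows were read to show what the members share in sequence. RefSeq (GRCm38.p6) gave windows of 300 bases, from 250 before to 50 after a transcription start, for 43 of the 55 members. An E2F-type motif, TTTNNCGC on either strand, was found in windows of 20 of these 43 members (46.5%). The same letters occurred in 9.75% of the 9452 tested genes with a window and in 5.93% of all 27025 genes in the table. CCAAT on either strand was found in 27 of 43 members (62.8%) and in 42.9% of tested genes. The motif TTTGAA, known as CHR from genes of mitosis, was found in 7 of 43 members (16.3%) and in 14.8% of tested genes. Split by the call without LPS+resveratrol replicate 1, the E2F-type motif was in 13 of 24 called members (54.2%) and 7 of 19 not called (36.8%). CCAAT was in 18 of 24 called members (75.0%) and 9 of 19 not called (47.4%), and TTTGAA in 3 of 24 called members (12.5%) and 4 of 19 not called (21.1%). These differences were not tested. Windows were not matched for base composition, and a match is a description of letters, not of binding. The windows of the called genes Lig1, Prim1, Slbp and Ccne1 are shown with those of Clspn and Tyms, which hold an E2F-type match and were added after the data were seen. Ccne2 has no window shown. Lig1 has 3 windows in the table, of which the one with the match is shown. Capitals mark matches, 8 letters for the E2F-type motif and 5 for CCAAT or its reverse complement.
Lig1, chr7:13278576-13278875, plus strand: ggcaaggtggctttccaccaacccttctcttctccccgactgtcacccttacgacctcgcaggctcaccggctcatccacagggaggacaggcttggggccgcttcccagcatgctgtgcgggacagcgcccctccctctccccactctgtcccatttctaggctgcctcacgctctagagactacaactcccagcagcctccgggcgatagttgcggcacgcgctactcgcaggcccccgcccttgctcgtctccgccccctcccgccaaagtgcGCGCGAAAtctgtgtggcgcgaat
Clspn, chr4:126556730-126557029, plus strand: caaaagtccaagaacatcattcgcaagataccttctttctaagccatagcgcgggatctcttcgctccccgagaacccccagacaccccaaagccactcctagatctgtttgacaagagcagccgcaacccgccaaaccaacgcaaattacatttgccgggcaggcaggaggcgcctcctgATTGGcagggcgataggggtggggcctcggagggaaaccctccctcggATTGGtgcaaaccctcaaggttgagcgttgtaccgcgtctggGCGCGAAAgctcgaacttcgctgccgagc
Tyms, chr5:30073576-30073875, minus strand: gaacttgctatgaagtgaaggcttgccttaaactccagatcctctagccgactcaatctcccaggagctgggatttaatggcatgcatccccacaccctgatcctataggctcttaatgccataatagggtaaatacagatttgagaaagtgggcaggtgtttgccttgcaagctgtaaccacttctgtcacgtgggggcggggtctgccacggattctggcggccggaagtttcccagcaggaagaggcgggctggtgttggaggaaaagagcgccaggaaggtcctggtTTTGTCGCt
Slbp, chr5:33652525-33652824, minus strand: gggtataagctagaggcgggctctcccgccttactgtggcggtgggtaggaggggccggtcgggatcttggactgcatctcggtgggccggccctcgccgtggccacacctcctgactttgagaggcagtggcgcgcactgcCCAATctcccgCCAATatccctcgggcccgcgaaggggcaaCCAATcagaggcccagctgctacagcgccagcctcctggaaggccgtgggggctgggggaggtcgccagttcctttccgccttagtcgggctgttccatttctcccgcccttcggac
Prim1, chr10:128014965-128015264, plus strand: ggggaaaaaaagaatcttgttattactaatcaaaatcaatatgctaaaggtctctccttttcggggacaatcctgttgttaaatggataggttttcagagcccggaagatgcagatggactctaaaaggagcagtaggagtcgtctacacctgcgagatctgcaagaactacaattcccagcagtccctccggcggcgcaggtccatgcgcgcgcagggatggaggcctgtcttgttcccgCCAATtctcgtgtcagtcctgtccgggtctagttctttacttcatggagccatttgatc
Ccne1, chr7:38107441-38107740, minus strand: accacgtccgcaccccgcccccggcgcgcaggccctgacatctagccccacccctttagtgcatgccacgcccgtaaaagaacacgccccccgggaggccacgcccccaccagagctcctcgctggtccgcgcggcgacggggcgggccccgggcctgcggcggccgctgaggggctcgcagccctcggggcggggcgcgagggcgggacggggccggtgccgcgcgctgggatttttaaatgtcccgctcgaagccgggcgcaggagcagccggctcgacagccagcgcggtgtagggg

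In Lig1, Clspn and Tyms the E2F-type match began 27, 22 and 42 bases after the start. Slbp had 3 CCAAT matches, 67 to 108 bases before the start, Prim1 had 1, 9 bases before it, and Clspn had 2, 69 and 21 bases before it. Ccne1 had no match to either motif in its window, which says only that these letters are not there.

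The helicase and its loading factors had a median log2 fold change of 0.31 over 6 libraries and 0.30 without LPS+resveratrol replicate 1. Of the 12 genes, 0 were called over 6 libraries (edgeR, 5 at an unadjusted p under 0.05, 2 with DESeq2 and 0 with limma-voom), and 6 rose without LPS+resveratrol replicate 1. These were Cdc6, Mcm4, Mcm5, Mcm7, Cdc45 and Gins2. Cdc6, which loads the helicase on origins, had 9.85, 10.7 and 10.1 CPM with resveratrol and 7.57, 5.99 and 6.81 CPM with LPS alone. Its 3 LPS+resveratrol values lay together above the LPS values, and without replicate 1 the log2 fold change was 0.61 ± 0.14 (edgeR adjusted p = 0.00108). Mcm4, a helicase subunit, had 48.3, 32.2 and 31.6 CPM in LPS+resveratrol libraries and 22.1, 24.4 and 23.8 CPM in LPS libraries. There replicate 1 was far above its group, and the log2 fold change was 0.67 ± 0.182 over 6 libraries (edgeR adjusted p = 0.116) and 0.44 ± 0.0822 without it (edgeR adjusted p = 9.09e-05). Mcm5 went the other way in that library, with 35.8, 47.4 and 42.9 CPM in LPS+resveratrol libraries and 38.0, 34.3 and 38.1 CPM in LPS libraries, and rose by 0.29 on the log2 scale without it (edgeR adjusted p = 0.00556). Mcm6 had 52.6, 39.8 and 38.1 CPM with resveratrol and 34.4, 33.7 and 34.2 CPM with LPS alone and missed the threshold in either comparison (edgeR adjusted p = 0.24 and 0.0768).

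Of the other subunits of the MCM ring, Mcm2, Mcm3 and Mcm7 had log2 fold changes of 0.27, 0.18 and 0.35 over 6 libraries and 0.21, 0.20 and 0.32 without LPS+resveratrol replicate 1, where Mcm7 passed. Mcm7 shares 7.25% of its exon bases with Ap4m1 on the opposite strand, which rose by 0.55 on the log2 scale there (edgeR adjusted p = 0.027). The ring subunits thus had values between 0.18 and 0.44 on the log2 scale without that library. Cdc45, which completes the active helicase together with the GINS complex, rose by 0.45 there (edgeR adjusted p = 0.00427). Gins2 rose by 0.66 on a low level, with 1.81, 3.62 and 3.57 CPM in LPS+resveratrol libraries and 2.51, 2.43 and 1.83 CPM in LPS libraries. It shares 67.3% of its exon bases with Gse1 on the opposite strand, which fell by 0.35 on the log2 scale without that library. Gins1, Mcm10 and the licensing inhibitor Gmnn did not pass, with log2 fold changes of 0.26, −0.05 and 0.33.

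Pcna (ENSMUSG00000027342), the sliding clamp, was the most abundant member per transcript length, at 51.1 CPM per kb with resveratrol and 34.1 CPM per kb with LPS alone. Slbp followed with 28.0 and 18.8 CPM per kb, and Rrm2 with 23.7 and 16.4 CPM per kb. Pcna had 65.0, 82.3 and 85.2 CPM in LPS+resveratrol libraries and 53.5, 50.8 and 51.2 CPM in LPS libraries. Replicate 1 lay between the LPS range and the other LPS+resveratrol libraries. Pcna did not pass over 6 libraries (log2 fold change 0.58 ± 0.129, edgeR adjusted p = 0.0774) and rose by 0.68 ± 0.0641 without replicate 1 (edgeR adjusted p = 2.21e-10). Of the clamp loader, Rfc3 had 7.99, 7.99 and 7.70 CPM in LPS+resveratrol libraries and 5.39, 5.29 and 5.71 CPM in LPS libraries and rose by 0.51 without replicate 1 (edgeR adjusted p = 0.0118). Rfc2 had 21.2, 26.5 and 23.4 CPM with resveratrol and 24.5, 21.2 and 23.2 CPM with LPS alone, with overlapping groups. Rfc2, Rfc4 and Rfc5 did not pass, with log2 fold changes of 0.11, 0.42 and 0.16 without that library. They share 15.1%, 12.7% and 10.7% of their exon bases with Lat2, Eif4a2 and Wsb2 on the opposite strand. None of these partners was called in either comparison (edgeR). Of the 5 clamp and loader genes 0 passed over 6 libraries with edgeR or limma-voom, 2 had an unadjusted p under 0.05, and DESeq2 called 1.

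Of 7 primase and polymerase genes, Prim1 alone passed over 6 libraries with edgeR and limma-voom and Prim1 and Pole with DESeq2, and Prim1, Pola1 and Pole rose without LPS+resveratrol replicate 1. Pole, the catalytic subunit of the leading-strand polymerase epsilon, had 22.6, 13.3 and 14.9 CPM in LPS+resveratrol libraries and 9.64, 8.63 and 8.69 CPM in LPS libraries. Replicate 1 was the highest, and the log2 fold change was 0.91 ± 0.214 with it (edgeR adjusted p = 0.0872) and 0.64 ± 0.121 without it (edgeR adjusted p = 9.4e-05). Pola1, the catalytic subunit of polymerase alpha, rose by 0.44 without it (edgeR adjusted p = 0.00947). Its partner Pola2 had 26.3, 22.0 and 21.5 CPM with resveratrol and 22.8, 20.8 and 23.1 CPM with LPS alone, and the groups overlapped (log2 fold change −0.04 ± 0.0893 without replicate 1). Pold3, a subunit of polymerase delta, had 30.8, 20.1 and 19.3 CPM in LPS+resveratrol libraries and 16.2, 17.5 and 16.5 CPM in LPS libraries and missed the threshold with and without replicate 1 (edgeR adjusted p = 0.234 and 0.0798). Pold1, the catalytic subunit of the same enzyme, had 8.75, 19.4 and 17.4 CPM in LPS+resveratrol libraries and 17.2, 15.9 and 18.5 CPM in LPS libraries, so that replicate 1 was below all others. Neither Pold1 nor Prim2 passed in either comparison.

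Rpa1, the large subunit of the protein that coats single-stranded DNA, had 22.2, 27.1 and 27.5 CPM in LPS+resveratrol libraries and 19.0, 19.3 and 16.5 CPM in LPS libraries. The groups did not overlap, and Rpa1 rose by 0.57 ± 0.0899 without replicate 1 (edgeR adjusted p = 6.47e-06), having missed the threshold over 6 libraries (0.49 ± 0.133, edgeR adjusted p = 0.119). Rpa2 rose by 0.37 without replicate 1, in which it was at 11.5 CPM, against 17.8 and 18.6 CPM in the other LPS+resveratrol libraries. Fen1, the nuclease that trims Okazaki fragments, had 6 to 13 counts per library and did not pass, and 78.8% of its exon bases are shared with Gm10143 on the opposite strand.

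Of the nucleotide synthesis genes, ribonucleotide reductase, which makes the building blocks of DNA, consists of the products of Rrm1 and Rrm2. Rrm2, the subunit that limits its activity in S phase, had 36.8, 58.0 and 61.4 CPM in LPS+resveratrol libraries and 33.8, 37.4 and 36.3 CPM in LPS libraries. Replicate 1 lay inside the LPS range, and Rrm2 rose by 0.73 ± 0.0737 without it (edgeR adjusted p = 1.27e-09; 0.2 over 6 libraries). Rrm1 showed the opposite order, with 92.2, 67.1 and 57.5 CPM in LPS+resveratrol libraries and 52.7, 54.1 and 46.7 CPM in LPS libraries, and rose by 0.28 without replicate 1 (edgeR adjusted p = 0.00707; 0.203 over 6 libraries). Tyms, which makes thymidylate, had 10.1, 10.6 and 9.89 CPM in LPS+resveratrol libraries and 6.86, 6.96 and 6.02 CPM in LPS libraries. Its 3 LPS+resveratrol libraries agreed closely, and the log2 fold change was 0.62 over 6 libraries (edgeR adjusted p = 0.0705) and 0.63 without replicate 1 (edgeR adjusted p = 0.000737). Tk1, the thymidine kinase of the salvage pathway, did not pass, with log2 fold changes of −0.05 and 0.15. Of these 4 genes 0 passed over 6 libraries with edgeR or limma-voom, 3 had an unadjusted p under 0.05, and DESeq2 called 1.

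**Figure D3:**
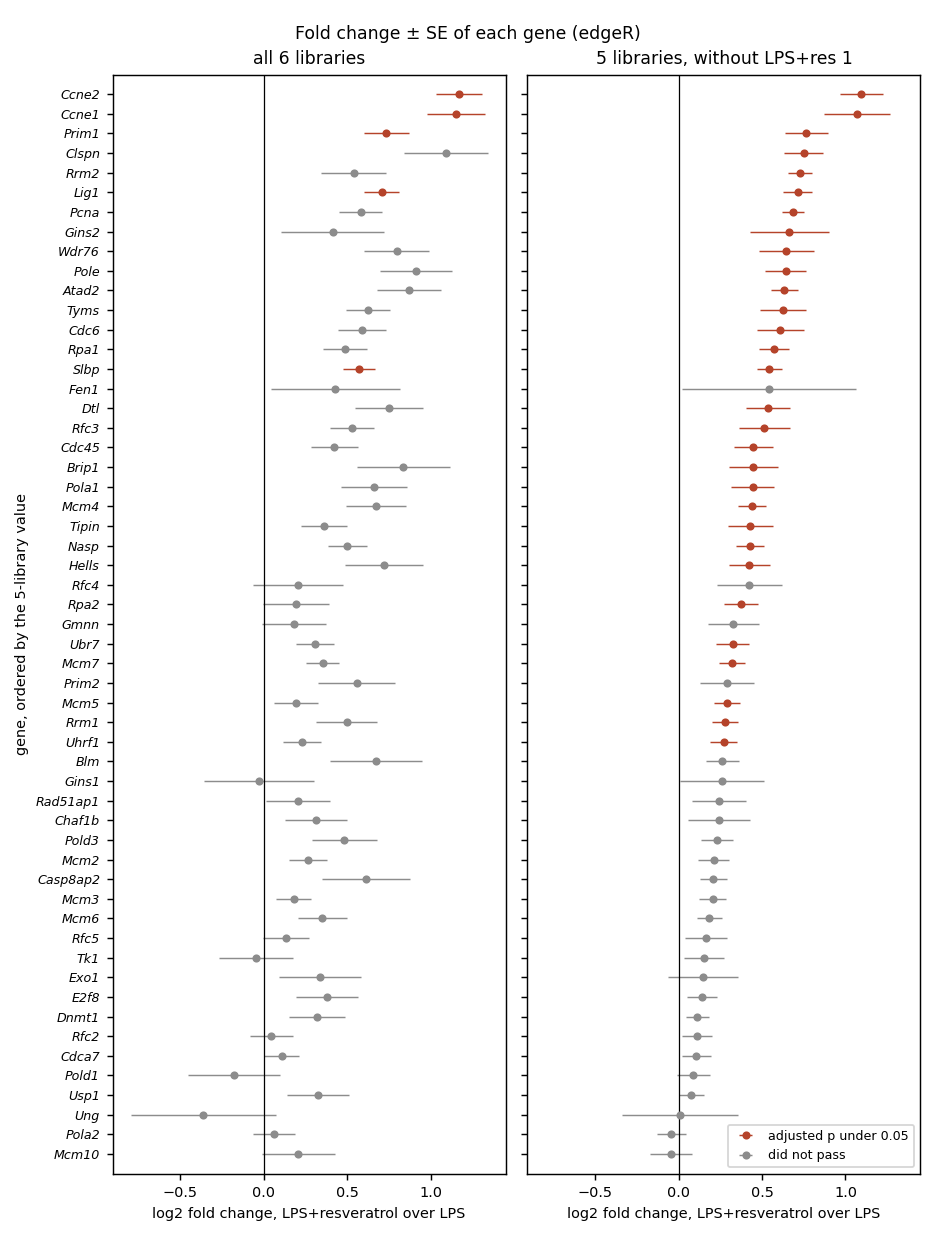
Log2 fold change of LPS+resveratrol over LPS (horizontal axes) with its SE for each of the 55 genes (rows, ordered by the value without LPS+resveratrol replicate 1), over all 6 libraries (left) and over 5 (right); red marks an edgeR adjusted p under 0.05. Red points number 5 on the left and 30 on the right, all of them above 0.

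A group of 10 members was listed under chromatin and DNA methylation behind the fork, although Slbp and Casp8ap2 among them act on histone messages. Slbp passed over 6 libraries with edgeR and limma-voom and Slbp, Atad2 and Nasp with DESeq2, and Slbp, Atad2, Nasp, Hells, Uhrf1 and Ubr7 rose without LPS+resveratrol replicate 1. Atad2, a chromatin ATPase with a bromodomain, had 82.2, 59.6 and 48.6 CPM in LPS+resveratrol libraries and 35.7, 34.5 and 33.8 CPM in LPS libraries. All 3 LPS+resveratrol values were above the LPS range, and the log2 fold change was 0.87 ± 0.191 with replicate 1 (edgeR adjusted p = 0.0755) and 0.63 ± 0.081 without it (edgeR adjusted p = 2.2e-07). Nasp, a histone chaperone, rose by 0.43 and Hells, a chromatin remodeler needed for DNA methylation, by 0.42 without replicate 1 (edgeR adjusted p = 0.000166 and 0.00903). Uhrf1, which brings the maintenance methyltransferase to new DNA, and Ubr7, a ubiquitin ligase, rose by 0.27 and 0.32. Dnmt1, that methyltransferase, had 102.5, 75.8 and 66.1 CPM with resveratrol and 61.8, 66.3 and 67.7 CPM with LPS alone. Only replicates 1 and 2 were above the LPS range, and Dnmt1 did not pass (log2 fold change 0.32 ± 0.169 over 6 libraries and 0.11 ± 0.0679 without replicate 1). Casp8ap2, which acts in histone message processing, had 58.3 CPM in replicate 1, against 30.8 and 29.1 CPM in the other LPS+resveratrol libraries and 25.4 to 26.2 CPM in LPS libraries, and did not pass. Cdca7, the activator of Hells, and Chaf1b, a subunit of the histone assembly factor at the fork, did not pass, with log2 fold changes of 0.11 and 0.24 without replicate 1.

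Of 9 genes of fork protection and repair, 0 passed over 6 libraries with edgeR or limma-voom, 5 had an unadjusted p under 0.05, and DESeq2 called 2. Clspn, Wdr76, Brip1 and Tipin rose without LPS+resveratrol replicate 1. Clspn, the adaptor through which stalled forks activate the kinase Chk1, had 27.8, 16.0 and 15.1 CPM in LPS+resveratrol libraries and 10.3, 8.74 and 8.59 CPM in LPS libraries. The groups were well apart, and the log2 fold change was 1.09 ± 0.251 with replicate 1 (edgeR adjusted p = 0.0844) and 0.75 ± 0.119 without it (edgeR adjusted p = 7.51e-06). Wdr76 had 10.5, 9.12 and 6.93 CPM in LPS+resveratrol libraries and 5.23, 5.50 and 4.56 CPM in LPS libraries and rose by 0.65 without replicate 1 (edgeR adjusted p = 0.00301). Brip1, a repair helicase, and Tipin, a fork protection subunit, rose by 0.45 and 0.43 in that comparison (edgeR adjusted p = 0.0217 and 0.0148). Blm, the helicase lost in Bloom syndrome, had 37.4, 18.2 and 20.0 CPM in LPS+resveratrol libraries and 15.8, 14.5 and 17.2 CPM in LPS libraries. Usp1, which removes ubiquitin from PCNA, had 75.9, 51.1 and 47.2 CPM with resveratrol and 46.2, 45.0 and 47.7 CPM with LPS alone. In both genes replicate 1 alone stood far above the LPS range, and neither passed without it (edgeR adjusted p = 0.0553 and 0.502). Exo1, Rad51ap1 and Ung did not pass, with log2 fold changes of 0.15, 0.24 and 0.0079 without replicate 1, and Ung was at 0.383 to 1.43 CPM over all libraries.

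Where LPS+resveratrol replicate 1 parted from replicates 2 and 3, transcript length moved with the deviation. Of the 17 members with a longest protein-coding transcript over 4 kb (4000 bases), replicate 1 lay above both in 14, with a median deviation of 0.56 on the log2(CPM + 0.1) scale. Of the 12 members under 2 kb (2000 bases) it lay below both in 8, with a median of −0.31. The 26 members between these lengths had a median of −0.03. The median log2 fold change of the long members was 0.66 over 6 libraries and 0.44 without replicate 1, and that of the short members was 0.34 and 0.40. The members were not split by GC content in this way. The parts of length and of GC content in these results were not tested beyond the offsets named above. When any 1 LPS library was left out as well as LPS+resveratrol replicate 1, 26 to 30 members were called higher and 0 lower (edgeR). Over all tested genes these fits called 1411 to 1528 higher and 1471 to 1752 lower. Leaving out a further LPS+resveratrol library left a lone one in that group, so no calls are given for those fits. The members' median log2 fold change was 0.30 without replicate 2 and 0.38 without replicate 3, beside −0.03 and −0.02 over all tested genes.

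**Figure D4:**
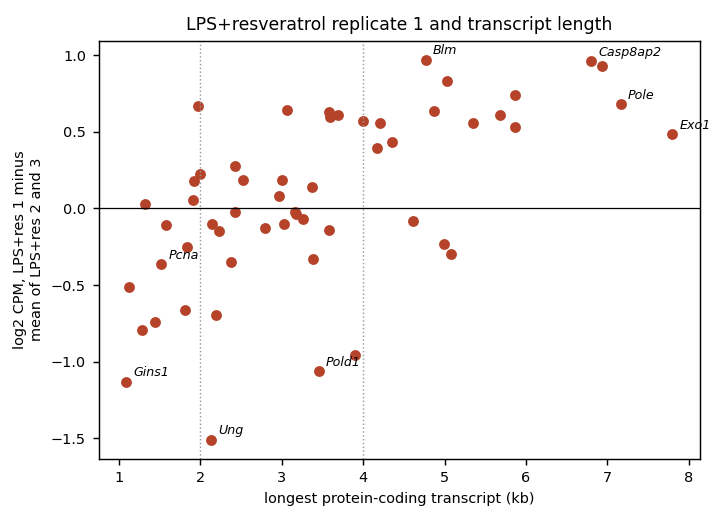
Log2(CPM + 0.1) of LPS+resveratrol replicate 1 minus the mean of LPS+resveratrol replicates 2 and 3 (vertical axis) against the length of the longest protein-coding transcript in kb (horizontal axis), with 1 point for each of the 55 genes; dotted lines stand at 2 and 4 kb. Most long members lie above 0 and most short ones below it.

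Other genes of the same process, from lists that hold none of the members, were described list by list. In 5 lists of origin licensing, further fork subunits, nucleotide supply, G1/S regulators and checkpoint genes, 91 of 95 genes were tested over 6 libraries. Of these 2 rose and 1 fell (edgeR, 2.20% and 1.10%), against 0.668% and 1.17% of all tested genes. Without LPS+resveratrol replicate 1, 17 rose and 14 fell (18.7% and 15.4%), against 11.8% and 12.9% of all tested genes. The pooled median log2 fold change of the 5 lists was 0.08 over 6 libraries and 0.04 without that library. The lists differed, with medians over 6 libraries between −0.16 for nucleotide supply and 0.31 for origin licensing. The genes called over 6 libraries were Dck, Cdkn1a and Ccnd2. Dck, the kinase that salvages deoxycytidine, had 160.8, 173.6 and 174.8 CPM in LPS+resveratrol libraries and 97.3, 97.9 and 96.3 CPM in LPS libraries (log2 fold change 0.80 ± 0.0932, edgeR adjusted p = 0.0212). Cdkn1a, which encodes the cyclin-dependent kinase inhibitor p21, had 47.2, 58.4 and 66.6 CPM with resveratrol and 31.3, 32.4 and 29.9 CPM with LPS alone (0.88 ± 0.144, edgeR adjusted p = 0.0366). Ccnd2, a D-type cyclin of G1, had 42.2, 38.1 and 34.2 CPM with resveratrol and 60.2, 60.4 and 56.8 CPM with LPS alone (−0.63 ± 0.115, edgeR adjusted p = 0.0469). Both cyclin E genes and an inhibitor of their kinase were thus called higher, and a G1 cyclin lower.

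Origin licensing genes had positive log2 fold changes in 15 of 19 over 6 libraries, and their median of 0.31 equalled that of the members of helicase loading. Of the 19, 0 were called (edgeR), 6 were higher and 1 lower at an unadjusted p under 0.05, and DESeq2 called 1 higher. The groups did not overlap in 7 higher and 2 lower, and 4 rose and 1 fell without LPS+resveratrol replicate 1, with a median of 0.19. Dbf4, the activator of the kinase that fires origins, was the one that fell, by 0.64 on the log2 scale, while Mcm9 and Gins4 rose by 0.44 and 0.37 (edgeR adjusted p = 0.00789 and 0.0205). Further fork subunits had a median log2 fold change of 0.05 over 6 libraries, with 13 positive and 10 negative. Without LPS+resveratrol replicate 1 the median was 0.13, with 17 positive and 6 negative. These genes had 0 calls over 6 libraries among 23 (edgeR, 1 higher at an unadjusted p under 0.05, DESeq2 0) and 4 higher and 1 lower calls without that library. Top2a, the topoisomerase that peaks in G2, was the lower one (−0.32, edgeR adjusted p = 1.97e-05), while Chtf8 and Rnaseh2a rose by 0.18 and 0.57. Checkpoint genes had 0 calls over 6 libraries among 9 (edgeR, 1 lower at an unadjusted p under 0.05, DESeq2 0), and Rad17 and Wee1 fell without that library. Among G1/S regulators 6 rose and 7 fell without it, and E2f7, an atypical E2F factor like E2f8, rose by 0.85. The 7 that fell were Ccnd2, Myc, Ccna2, Cdk6, Ccnd3, Cdkn2d and E2f2. Myc had a log2 fold change of −0.82 and the cyclin gene Ccna2 one of −0.66 (edgeR adjusted p = 5.98e-06 and 7.01e-06). Ccna2 had 54.3, 30.1 and 23.0 CPM in LPS+resveratrol libraries and 38.7, 43.7 and 42.2 CPM in LPS libraries. Over 6 libraries it did not pass (−0.21, edgeR adjusted p = 0.703).

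Genes of the next cell cycle stages moved in the opposite direction. Of 24 G2 and mitosis genes 7 fell and 0 rose over 6 libraries, and 23 fell and 0 rose without LPS+resveratrol replicate 1 (edgeR). Their median log2 fold changes were −0.70 and −0.92. Among all tested genes 1.17% and 12.9% were called lower in these comparisons. Ccnb1, the main mitotic cyclin, had 12.5, 15.3 and 14.4 CPM in LPS+resveratrol libraries and 38.7, 39.9 and 35.0 CPM in LPS libraries. The summed level of the 24 genes was 1116, 669.5 and 614.3 CPM in LPS+resveratrol replicates 1 to 3 and 1078, 1073 and 1053 CPM in LPS replicates 1 to 3. In this sum replicates 2 and 3 lay below the LPS range and replicate 1 just above it. Mki67 alone had 597.1, 259.3 and 238.4 CPM in LPS+resveratrol replicates 1 to 3 and 316.3 to 325.5 CPM in LPS libraries. By gene over 6 libraries, levels did not overlap between the groups in 17 of the 24, all of them lower with resveratrol. Among all tested genes 15.9% did not overlap and were lower, and 17.3% did not overlap and were higher. TTTGAA was found in the windows of 16 of 21 of these genes (76.2%) and TTTNNCGC in 1 of 21 (4.76%).

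**Figure D5:**
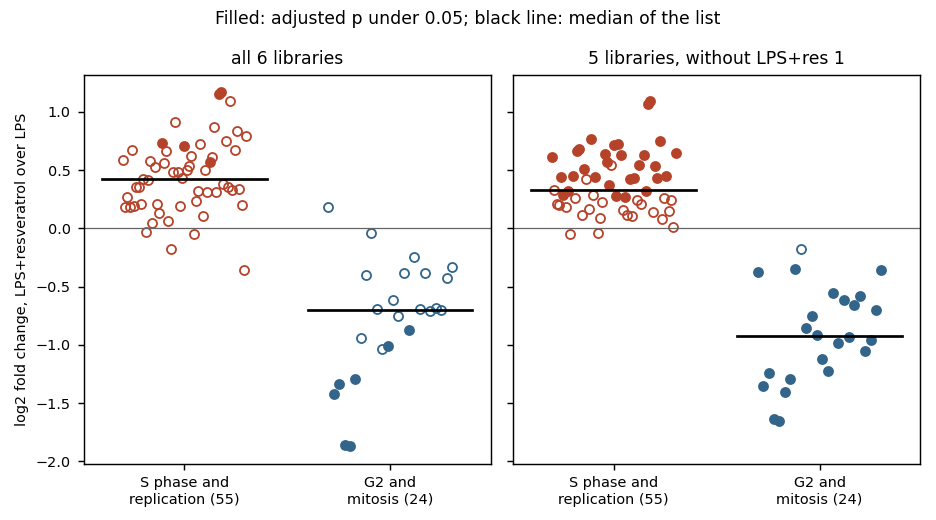
Log2 fold change of LPS+resveratrol over LPS (vertical axis) for the 55 S phase and replication genes and for 24 G2 and mitosis genes, over all 6 libraries (left) and without LPS+resveratrol replicate 1 (right). Each circle is a gene, filled where the edgeR adjusted p was under 0.05, and black lines are the medians, 0.42 and −0.70 on the left and 0.33 and −0.92 on the right.

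Markers of other cells and of neutrophil stages are given beside these results. Mature neutrophil markers summed to 22440 to 45016 CPM in LPS+resveratrol libraries, with the lowest value in replicate 1, and to 39617 to 42428 CPM in LPS libraries. Markers of dividing neutrophil precursors summed to 186.4, 326.3 and 324.5 CPM in LPS+resveratrol libraries and to 427.8, 476.7 and 438.1 CPM in LPS libraries. All 7 of these had negative log2 fold changes. Mpo, the peroxidase of primary granules, fell over 6 libraries (−0.65, edgeR adjusted p = 0.0338), and 5 fell without replicate 1. The S phase members were thus higher in the libraries in which precursor granule genes were lower. Over 6 libraries Mpo was the one marker gene called with edgeR in any of these lists. Markers of B cells summed to 115.2 to 154.2 CPM in LPS+resveratrol and 165.9 to 176.3 CPM in LPS libraries, and those of T and NK cells to 7.02 to 8.81 CPM in LPS+resveratrol and 10.6 to 12.1 CPM in LPS libraries. Stem and progenitor markers had 56.3 to 63.4 CPM with resveratrol and 66.1 to 69.0 CPM with LPS alone, and erythroid markers 13.1 to 93.7 CPM with resveratrol and 71.4 to 88.7 CPM with LPS alone. Eosinophil, basophil and mast cell markers had 80.1 to 117.4 CPM with resveratrol and 127.7 to 133.3 CPM with LPS alone. Without replicate 1, of these lists 3 of 8 B cell, 2 of 6 T and NK cell, 1 of 6 stem cell, 1 of 8 erythroid and 2 of 8 eosinophil, basophil and mast cell markers fell and 0 rose (edgeR). Among all tested genes 12.9% were called lower and 11.8% higher in that comparison. Monocyte and macrophage markers had 2515 to 2773 CPM with resveratrol and 2582 to 2625 CPM with LPS alone, sums that hide opposite movements. Of these 8, Csf1r, Ly6c2, Ccr2, Cx3cr1 and Ms4a7 fell and Adgre1 rose by 0.46 on the log2 scale without replicate 1. Immature neutrophil markers had 43778 to 58609 CPM with resveratrol and 45936 to 50663 CPM with LPS alone. Of these 6, Camp, Ltf, Ngp and Lcn2 rose by 0.26 to 0.36 without replicate 1, in the same libraries as the S phase members, and Chil3 fell by 0.55. Of 10 mature neutrophil markers Ly6g, S100a8, Mmp8 and Mmp9 rose there, Ly6g by 0.72, and 0 fell. No marker was at 0 in all libraries, no list's sum was higher in every LPS+resveratrol library than in every LPS library, and the part of cell composition in the results was not tested.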

How the data were processed

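RNA sequencing of 6 neutrophil samples was used, and the authors deposited them as 1 table of raw read counts, a whole number for each Ensembl ID in each sample. Per the submitters' processing notes, Bowtie 0.12.2 and mm8 were used. How reads were assigned to genes, and whether by strand, is not given in the sources used here. Duplicates are mentioned for the series, but the labels list 3 samples in each group. Symbols were matched for 25595 of 25663 IDs, and where IDs shared a symbol the one with most counts kept it.

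Genes were kept by filterByExpr (minimum count 10), scaled by TMM and compared in edgeR 4.0.16 under R 4.3.3 by a robust two-sided quasi-likelihood test of group, with Benjamini-Hochberg adjustment over all tested genes and a threshold of 0.05. The kept genes held at least 99.8% of each sample's counts. Standard errors were taken from the F statistic. Levels are CPM on TMM-scaled totals. The comparison without LPS+resveratrol replicate 1 was filtered, scaled and fitted anew, with levels kept on the scale of all 6 libraries. Lengths, GC content and exon overlaps come from GENCODE M21 (longest protein-coding transcript), promoters from RefSeq. The alternatives were DESeq2 1.42.0, limma-voom (limma 3.58.1) with and without library quality weights, other size factors, unscaled totals, no filter, at least 50 counts in at least 2 libraries, a replicate block, length and GC offsets, and leaving out each sample. No 2 libraries were identical, and libraries of the same group differed by a chi-square per degree of freedom of 3.3 or more. Members, lists and tests were chosen with earlier results of these data known. Values in every sample are given for the 2 members of each role with the smallest p over 6 libraries and the 2 most abundant, and up to 3 genes are named from other lists by adjusted p. Other per-sample values, further G1/S regulators named as lower and the Clspn and Tyms windows were chosen after the data were seen.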

Additional observations from a re-analysis of the deposited data

How the results depend on the processing

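Over 6 libraries, where 90 genes were called higher, 157 lower and 5 members higher, the counts were 394, 451 and 15 with DESeq2, 354, 492 and 14 with length and GC offsets, 153, 239 and 8 without a filter, and 1549, 1599 and 30 with library quality weights. With the replicate number as a block they were 0, 0 and 0 (edgeR, 26 members at an unadjusted p under 0.05), and 71, 130 and 6 with the block and the offsets together. Deviations of same-numbered libraries from their group means correlated at 0.0135, −0.0218 and −0.000169, and not every library correlated best with its own number. These values gave no sign of pairing by number. They cannot settle it, because LPS+resveratrol replicate 1 stood far from its group and so shaped the deviations there. Leaving out each library gave 0 to 1631 genes higher, 0 to 1776 lower and 0 to 30 members higher. Over 5 libraries, without LPS+resveratrol replicate 1, leaving out a further library gave 892 to 1528 higher, 1130 to 1752 lower and 17 to 30 members higher, and the block gave 28 members. Where it left a lone LPS+resveratrol library, that sample was assumed to vary like the others. Limma-voom, other size factors, unscaled totals and the stricter filter gave 4 to 5 members higher over 6 libraries. The causes of these differences in count were not tested. The count of members called lower was 0 in every alternative run with replicates in both groups. The members' median log2 fold change was 0.33 to 0.46 over the alternatives to the 6-library value and 0.30 to 0.38 over those to the 5-library value.

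Some members that were called in neither comparison changed sign. None of these passed where its sign changed (smallest adjusted p = 0.352), and the causes were not tested. With offsets Gins1 had 0.10, Rfc2 −0.064 and Tk1 0.20, and with block and offsets together they had 0.069, −0.080 and 0.20. Under quality weights Mcm10 had −0.038, Gins1 0.25, Pola2 −0.031, Pold1 0.071 and Tk1 0.16. Over 6 libraries, leaving out each library gave −0.22 to 0.26 for Gins1, −0.046 to 0.38 for Mcm10, −0.039 to 0.11 for Rfc2, −0.065 to 0.42 for Rfc4, −0.043 to 0.12 for Pola2, −0.39 to 0.088 for Pold1, −0.16 to 0.15 for Tk1 and −0.73 to 0.0079 for Ung. Over 5 libraries Ung had −0.010 on unscaled totals, Mcm10 0.028 with the block and Pola2 0.012 with offsets. Leaving out a further library there gave −0.22 to 0.10 for Mcm10, −0.17 to 0.15 for Ung and −0.017 to 0.28 for Exo1. Counts of 6 to 70 per library limit what can be seen for Fen1, Ung, Gins1 and Gins2.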
